A study of Mus musculus with 4 samples.

Results

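Mast cells and basophils are granulocytic cells armed through the high-affinity receptor for IgE, and this account follows 9 genes that serve them: Fcer1a and Ms4a2 (receptor chains), Cpa3, Mcpt8, Prss34, Cma1, Tpsb2 and Gzmb (granule proteases) and Hdc (histamine synthesis). They were followed in LSK cells, the lineage-negative, Sca-1-positive and c-Kit-positive bone marrow fraction that holds stem cells and multipotent progenitors. All non-control probes whose RefSeq transcript maps to 1 of these symbols were taken, which gave 10 probes for the 9 genes, out of 55681 distinct probes and 20887 named genes on the array. Tpsb2 had 2 probes and each other gene 1.

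RNA was measured in 4 groups with 1 single-colour array each. Transplanted Sf3b1+/- and transplanted WT cells were CD45.2+ LSK cells recovered 9 months after whole marrow of that genotype had been given to lethally irradiated CD45.1+ hosts. Native Sf3b1+/- and native WT cells came straight from mice 20 weeks old. The mice were C57BL/6, and Sf3b1+/- mice keep a single functional copy of Sf3b1, which encodes a core subunit of the U2 splicing particle. Per the labels, 5 recipients were used for the transplanted cells and 4 mice for the native ones. How many stand behind each array, and the age of the marrow donors, are not given in the sources used here. Transplanted and native cells differ in transplantation, in irradiation of the host and in time since birth, and these cannot be told apart.

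Basophils and mast cells both arise from progenitors downstream of LSK cells, under the transcription factors Gata2 and Cebpa, with Mitf favouring the mast cell side. The IgE receptor is built of the IgE-binding alpha chain (Fcer1a), the signal-amplifying beta chain (Ms4a2) and a common gamma chain (Fcer1g). In the mouse, the proteases Mcpt8 and Prss34 are known as basophil products, whereas the chymase Cma1 and the tryptase Tpsb2 are known as mast cell products. Cpa3, a carboxypeptidase, and Hdc, which makes histamine from histidine, are used by both cell types. Gzmb encodes granzyme B, a protease of cytotoxic lymphocytes that mouse mast cells and basophils can also make.

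Signal is given as the scanner's processed intensity, scaled to the WT native array by the 75th percentile of probes well above background on all 4 arrays. The call well above background was made by the scanner software. The ± beside a signal is the scanner software's error of that spot, which covers measurement error alone and not the spread between mice. With 1 array a group, a difference between 2 groups has no replicate check. Levels are compared within a probe only. Spots well above background made up 51.5% and 50.2% of the transplanted Sf3b1+/- and WT arrays, and 48.7% and 47.7% of the native ones. Repeated spots of a probe on an array spread by 0.0673 to 0.082 (SD, log2). Sf3b1 itself, whose probe was above background on all 4 arrays, had a signal in Sf3b1+/- cells of 92.8% of WT in transplanted and 75.4% of WT in native cells. The LSK markers Kit, Ly6a, Cd34, Flt3 and Ptprc were well above background on all 4 arrays. Of 8 lineage antigens that the sort should remove, 7 were on the array and 4 of these (Cd3e, Cd4, Itgam and Cd5) were well above background on all 4 arrays, while Cd8a was so on none.

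Of the 9 genes, 6 were well above background on all 4 arrays (Cpa3, Mcpt8, Fcer1a, Gzmb, Hdc and Tpsb2). Prss34 was so on 3, and Ms4a2 and Cma1 on none. The 7 genes above background on at least 2 arrays are compared below, among 13033 such genes of the array.

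**Figure D1:**
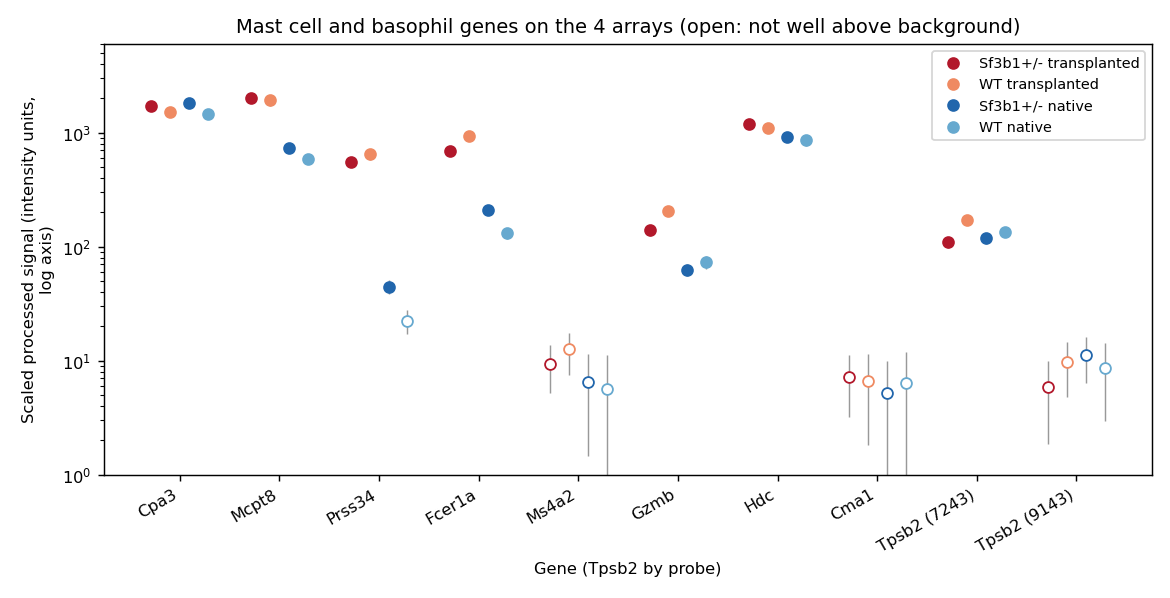
Scaled processed signal (log axis, intensity units) of each probe on the 4 arrays, with transplanted groups left of native ones. Bars are the scanner error, run to the foot of the axis where it reaches 1 or less, and open points were not well above background. Signals of different probes are not comparable. Mcpt8, Prss34, Fcer1a and Gzmb stood higher on both transplanted arrays, while Cpa3 stayed between 1469 and 1820.

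The basophil proteases Prss34 and Mcpt8 were higher in transplanted than in native LSK cells of both genotypes. Both passed the test given below close to its threshold, and under several other processing choices they did not. Fcer1a and Gzmb were at least 2-fold higher in both genotypes but did not pass the test with the main processing. Cpa3, Hdc and the brighter probe of Tpsb2 differed by 1.29-fold or less. Cpa3 and Hdc are used by both cell types, but so are Fcer1a and Gzmb, so the values do not divide basophil genes from shared ones. Prss34 (RefSeq NM_178372, chromosome 17), also called mast cell protease 11, gave 553 ± 55.4 in transplanted Sf3b1+/- cells and 645 ± 64.6 in transplanted WT cells. It gave 44.5 ± 6.04 in native Sf3b1+/- cells and 22.4 ± 5.31 in native WT cells, where it was not well above background. Both transplanted arrays were far above both native ones. In Sf3b1+/- cells its signal was 12.4-fold higher after transplantation (log2 3.63), the 21st highest difference of the 13033 compared genes. In WT cells the measured ratio was 28.8-fold (log2 4.85), but its size is uncertain because the native WT signal was not well above background. With normexp background correction, in which low signals differ less, the Prss34 differences were smaller, at log2 2.51 in Sf3b1+/- and 2.99 in WT cells.

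Mcpt8 (NM_008572, chromosome 14), a basophil granule protease, gave 2020 ± 202 in transplanted Sf3b1+/- cells and 1916 ± 192 in transplanted WT cells, against 735 ± 73.6 in native Sf3b1+/- cells and 591 ± 59.4 in native WT cells. The transplanted arrays again lay above the native ones, by 2.75-fold in Sf3b1+/- cells and 3.24-fold in WT cells (log2 1.46 and 1.70). In bulk RNA, more cells of a type and more RNA per cell cannot be told apart.

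Fcer1a (NM_010184, chromosome 1), the IgE-binding chain, gave 695 ± 69.6 in transplanted Sf3b1+/- cells and 931 ± 93.1 in transplanted WT cells, against 212 ± 21.5 in native Sf3b1+/- cells and 132 ± 13.9 in native WT cells. It was 3.28-fold higher after transplantation in Sf3b1+/- cells and 7.07-fold in WT cells (log2 1.72 and 2.82). The 4 arrays did not overlap between the collections, but the distance was wider in WT cells. Its partner chain Ms4a2 was not measurable. The probe of Ms4a2 (NM_013516, chromosome 19) read 9.40 ± 4.20 in transplanted Sf3b1+/- cells and 12.5 ± 5.07 in transplanted WT cells, against 6.45 ± 4.98 in native Sf3b1+/- cells and 5.62 ± 5.63 in native WT cells, and no array put it well above background. The gamma chain Fcer1g, shared with other Fc receptors, was 1.52-fold and 1.49-fold higher in transplanted Sf3b1+/- and WT cells than in their native counterparts (adjusted p = 0.121 for the collection in limma).

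Gzmb (NM_013542, chromosome 14) gave 139 ± 14.5 in transplanted Sf3b1+/- cells and 207 ± 21.3 in transplanted WT cells, against 62.8 ± 7.97 in native Sf3b1+/- cells and 73.4 ± 9.33 in native WT cells. That is 2.22-fold and 2.82-fold higher after transplantation, with no overlap between the collections. With normexp background correction, which pulls low signals together, the log2 differences were 0.56 and 0.74 in place of 1.15 and 1.5. Of 7 markers of NK cells and cytotoxic lymphocytes, 2 were at least 1.5-fold higher after transplantation in Sf3b1+/- cells and 4 in WT cells, where 11.4% and 7.95% of all compared genes were. Others differed little, with Cd3e, a T cell receptor subunit gene, at log2 -0.09 and -0.06 in Sf3b1+/- and WT cells and Nkg7 at -0.16 and 0.07. Of the 7 markers, Klrb1c, an NK cell receptor gene, differed more and gave 409 and 165 in transplanted Sf3b1+/- and WT cells, against 37.2 and 48.3 in native Sf3b1+/- and WT cells. The granzyme gene Gzma gave 108 and 232 in transplanted cells of these genotypes, against 85.1 and 64.3 in native ones. The NK receptor gene Ncr1 was well above background on 2 of 4 arrays, with signals of 18.7 and 27.4 in transplanted and 16.9 and 16.9 in native Sf3b1+/- and WT cells. Klrd1, the only gene of the 7 to pass limma and named after its values were seen, was well above background on 3 of 4 arrays. It gave 84.3 and 224 in transplanted Sf3b1+/- and WT cells, against 19.1 and 52.2 in native ones (adjusted p = 0.0381). The summed signal of the 7 genes ranged from 16288 to 16613 on transplanted and from 15287 to 17622 on native arrays. Most of it is Nkg7, so the sum says little of the dimmer probes. The part of these 7 genes in the Gzmb difference was not tested.

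Cpa3, Hdc and Tpsb2 differed less. Cpa3 (NM_007753, chromosome 3) gave 1713 ± 171 in transplanted Sf3b1+/- cells and 1520 ± 152 in transplanted WT cells, against 1820 ± 182 in native Sf3b1+/- cells and 1469 ± 147 in native WT cells. The collections overlapped, and the log2 differences of -0.09 and 0.05 were below their scanner error of 0.20. Hdc (NM_008230, chromosome 2) gave 1188 ± 119 in transplanted Sf3b1+/- cells and 1103 ± 110 in transplanted WT cells, against 921 ± 92.2 in native Sf3b1+/- cells and 854 ± 85.6 in native WT cells. Both transplanted arrays were above both native ones by 1.29-fold in each genotype. Of the probes of Tpsb2 (NM_010781, chromosome 17), the brighter gave 109 ± 11.5 in transplanted Sf3b1+/- cells and 172 ± 17.8 in transplanted WT cells, against 118 ± 12.7 in native Sf3b1+/- cells and 135 ± 14.5 in native WT cells, with the collections overlapping. The other Tpsb2 probe (5.90 to 11.3 over the 4 arrays) and the probe of Cma1 (NM_010780, chromosome 14), the chymase also called mast cell protease 5 (5.24 to 7.14), were not well above background on any array. Which transcripts each Tpsb2 probe reads was not tested.

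**Figure D2:**
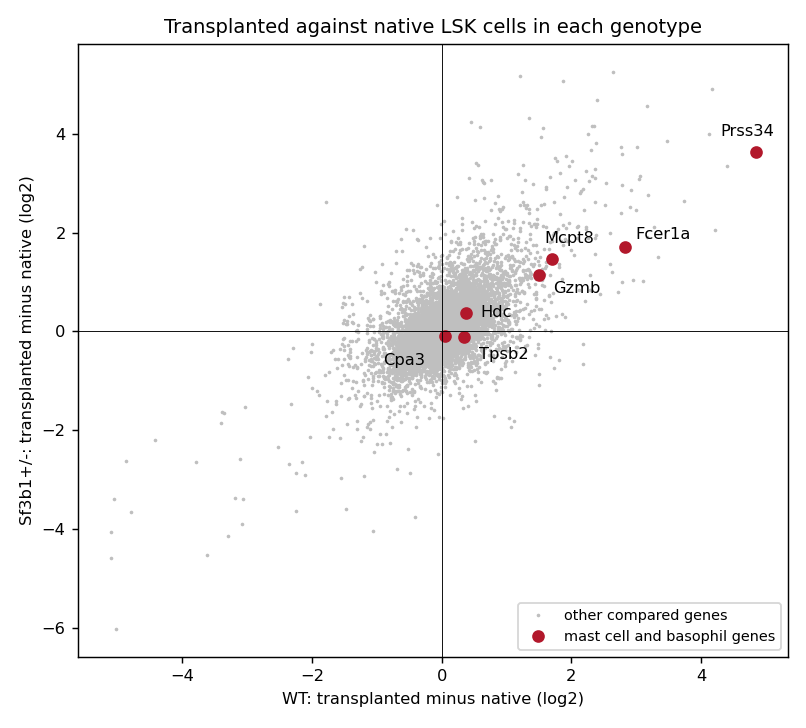
Log2 difference of transplanted over native cells in WT (horizontal) and in Sf3b1+/- (vertical) for the compared genes, with 7 mast cell and basophil genes in red. The axes rest on different arrays. Prss34 lies at 4.85 and 3.63, Fcer1a at 2.82 and 1.72, and Cpa3 near 0 on both; the native WT signal of Prss34 was not well above background.

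Counted by size, 4 of the 7 compared genes (Fcer1a, Gzmb, Mcpt8 and Prss34) were at least 2-fold higher after transplantation in Sf3b1+/- cells, where 4.8% of all compared genes were, and the same 4 in WT cells, where 2.79% were. None of the 7 was at least 2-fold lower (1.68% and 1.6% of all genes) or 1.5-fold lower (7.01% and 5.74%). Both transplanted arrays lay above both native arrays for 5 of the 7, the same 4 and Hdc, as they did for 25.5% of all compared genes, and below for none (26.5% of all). The median difference over the 7 was 1.15 in Sf3b1+/- and 1.5 in WT cells, against 0.01 and 0.00 over all compared genes. Prss34 entered the comparison through the arrays where it was high. Over the 6 genes above background on all 4 arrays the medians were 0.76 and 0.93, and over all 9 genes, dim probes included, 0.54 and 1.16, with medians of -0.13 and -0.13 over all 20886 genes with a complete probe.

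The collection was tested over both genotypes with limma, in an additive model with genotype as the other term and 1 residual degree of freedom a gene. Prss34 rose by 4.24 ± 0.33 on the log2 scale (SE; adjusted p = 0.0418, higher in 2 of 2 genotypes) and Mcpt8 by 1.58 ± 0.14 (adjusted p = 0.0499, 2 of 2). The model called 0.43% of compared genes higher and 0.153% lower. Fcer1a (2.27 ± 0.30, adjusted p = 0.0782), Gzmb (1.32 ± 0.15, adjusted p = 0.0674) and Hdc (0.37 ± 0.12, adjusted p = 0.174) did not pass, nor did Tpsb2 (0.12 ± 0.17, adjusted p = 0.671) or Cpa3 (-0.02 ± 0.13, adjusted p = 0.935). Prss34 reached this test through the transplanted arrays, where it was high, and its native WT signal was not well above background. The size of its estimate is therefore uncertain, and with normexp it was 2.75. Both calls lie near the threshold. Prss34 and Mcpt8 had adjusted p of 0.0799 each with quantile normalization, 0.0613 and 0.069 with cyclic loess, 0.07 and 0.0739 when probes of a gene were averaged, and 0.17 each without the filter on dim probes. Mcpt8 had 0.0606 with the percentile over all probes, whereas Fcer1a (0.0327) and Gzmb (0.0274) passed when every compared gene had to be above background on all 4 arrays. Over the alternatives the adjusted p ran from 1.09e-51 to 0.17 for Prss34 and from 7.53e-11 to 0.17 for Mcpt8, with the lowest under spike-in scaling, which called 5530 genes.

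Differences by genotype were smaller than those by collection for Prss34, Mcpt8, Fcer1a and Gzmb. None of the 7 genes was 2-fold higher or lower by genotype on measured signals in transplanted cells (2.05% and 1.3% of all compared genes) or in native cells (0.783% and 1.34%). In transplanted cells, Tpsb2 was 1.57-fold lower in Sf3b1+/- than in WT cells (log2 -0.65 with a scanner error of 0.21), the single gene of the 7 at least 1.5-fold lower, as were 6.43% of all compared genes. None was at least 1.5-fold higher (7.8% of all). Gzmb stood at -0.57 and Fcer1a at -0.42, with Prss34 at -0.22, Cpa3 at 0.17, Hdc at 0.11 and Mcpt8 at 0.08. The native WT signal of Prss34 was not well above background. As measured in native cells, Prss34 (1.99-fold) and Fcer1a (1.61-fold, log2 0.69 with a scanner error of 0.21) were higher in Sf3b1+/- than in WT. These were 2 of 7 genes at least 1.5-fold higher, against 3.25% of all compared genes. Neither difference reached 1.5-fold with normexp, where log2 was 0.24 for Prss34 and 0.47 for Fcer1a. The native difference of Prss34 passed 2-fold under other choices. It was log2 1.08 with quantile normalization, 1.01 with cyclic loess and 1.22 with spike-in scaling. With the percentile over all probes it was 0.99. None of the 7 was at least 1.5-fold lower (4.7% of all). Mcpt8 and Cpa3 stood at 0.31 each, Hdc at 0.11, Tpsb2 at -0.20 and Gzmb at -0.23. The median over the 7 was -0.22 in transplanted and 0.31 in native cells, against 0.01 and -0.00 over all compared genes.

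The 2 genotype comparisons use different arrays. For Cpa3 both Sf3b1+/- arrays lay above both WT arrays, as they did for 17.8% of compared genes, and for Tpsb2 both lay below, as for 18.5%. In the additive limma model no compared gene passed an adjusted p of 0.05 for genotype (0%), while 815 (6.25%) were higher and 962 (7.38%) lower at an unadjusted p under 0.05, none of them among the 7. The nearest were Gzmb (-0.40 ± 0.15 on the log2 scale, adjusted p = 0.369) and Tpsb2 (-0.42 ± 0.17, adjusted p = 0.372). For Gzmb the difference was within a few hundredths of 0 in both collections with spike-in scaling (0.04 in transplanted and 0.01 in native cells), where the median of all genes moved to 0.62 and 0.23.

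**Figure D3:**
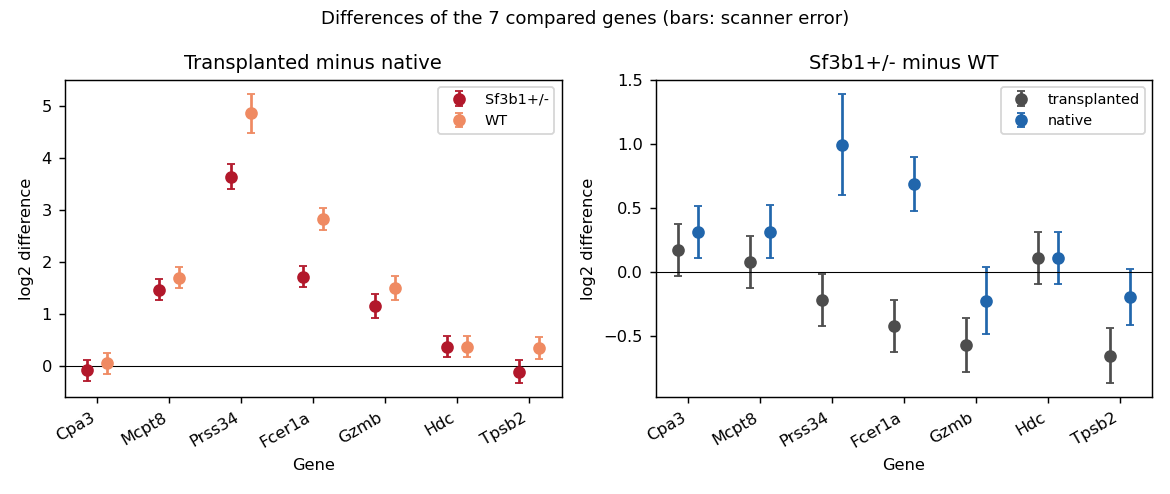
Log2 differences of the 7 compared genes, transplanted minus native on the left and Sf3b1+/- minus WT on the right, with scanner error as bars. The differences by collection reach 4.85 (Prss34 in WT), while those by genotype lie between -0.65 and 0.99; the native WT signal of Prss34 was not well above background.

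Promoter sequence was read for 8 of the 9 genes from RefSeq (GRCm38.p6), as the 250 bases before each gene's start. GATAA, the core of the site of Gata factors, was searched on both strands, where it reads TTATC on the reverse one, together with CANNTG, the E-box, which reads the same on both strands. Below stand the genes that differed most between the collections (Prss34, Fcer1a and Mcpt8), and Cpa3, which did not, with GATAA or TTATC in capitals.
Prss34, chr17:25298144-25298393, plus strand: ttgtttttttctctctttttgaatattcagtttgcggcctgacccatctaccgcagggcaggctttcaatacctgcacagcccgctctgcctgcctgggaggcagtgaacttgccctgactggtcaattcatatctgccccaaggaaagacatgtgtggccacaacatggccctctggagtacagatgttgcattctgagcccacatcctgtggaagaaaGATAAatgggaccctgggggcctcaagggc
Fcer1a, chr1:173227230-173227479, minus strand: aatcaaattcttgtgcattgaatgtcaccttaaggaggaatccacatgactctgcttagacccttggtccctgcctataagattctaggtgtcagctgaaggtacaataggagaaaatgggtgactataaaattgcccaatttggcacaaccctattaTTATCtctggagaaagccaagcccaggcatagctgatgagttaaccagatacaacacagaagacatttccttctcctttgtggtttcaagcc
Mcpt8, chr14:56085198-56085447, minus strand: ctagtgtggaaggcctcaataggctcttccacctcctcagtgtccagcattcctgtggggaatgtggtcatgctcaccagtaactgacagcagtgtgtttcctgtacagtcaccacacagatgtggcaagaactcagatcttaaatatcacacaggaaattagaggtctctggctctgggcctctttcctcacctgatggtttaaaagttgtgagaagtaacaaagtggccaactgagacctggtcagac
Cpa3, chr3:20242182-20242431, minus strand: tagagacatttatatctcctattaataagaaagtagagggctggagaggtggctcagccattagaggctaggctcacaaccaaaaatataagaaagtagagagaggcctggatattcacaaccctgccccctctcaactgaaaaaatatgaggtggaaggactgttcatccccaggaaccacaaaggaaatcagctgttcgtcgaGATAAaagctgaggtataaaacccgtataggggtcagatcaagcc
Counting the base before the start as -1, the match begins at -30 in Prss34, -92 in Fcer1a and -45 in Cpa3, and Mcpt8 has none in this window. Of the 8 promoters 5 hold GATAA on either strand (Cpa3, Prss34, Fcer1a, Ms4a2 and Cma1), as do 22.6% of 32851 RefSeq mouse promoters. An E-box is present in 7 of the 8 and in 66.2% of all. These are matches of letters and not measured binding. Genes with a match stand both among those that differed by collection and among those that did not.

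Mcpt8, Gzmb and Cma1 belong to 1 cluster of serine protease genes on chromosome 14. From Cma1 to Gzmb the annotation (GRCm38.p6, used for names and order alone) lists 15 protein-coding genes, all on the array, of which Cma2, Mcpt8, Ctsg and Gzmb were well above background on all 4 arrays. Ctsg, the neutrophil and mast cell protease cathepsin G, lies next to Mcpt8 and gave 68408 and 66807 in transplanted Sf3b1+/- and WT cells, against 43326 and 41242 in native ones, 1.58-fold and 1.62-fold higher (adjusted p = 0.107). Cma2 gave 139 and 205 in transplanted Sf3b1+/- and WT cells, against 178 and 210 in native ones. Gzmc, the neighbour of Gzmb, was well above background on 2 arrays, with 31.5 and 47.1 in transplanted and 9.71 and 19.3 in native Sf3b1+/- and WT cells. The mast cell proteases Mcpt1, Mcpt2 and Mcpt9 were above background on no array and Mcpt4 on 1. Genes of this cluster are close paralogs, and their probes may read more than 1 of them. On chromosome 17 the annotation lists Prss28 and Prss29 between Prss34 and Tpsb2. Prss28 gave 82.3 and 86.4 in transplanted Sf3b1+/- and WT cells, against 103 and 96.3 in native ones, and Prss29 was not above background.

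**Figure D4:**
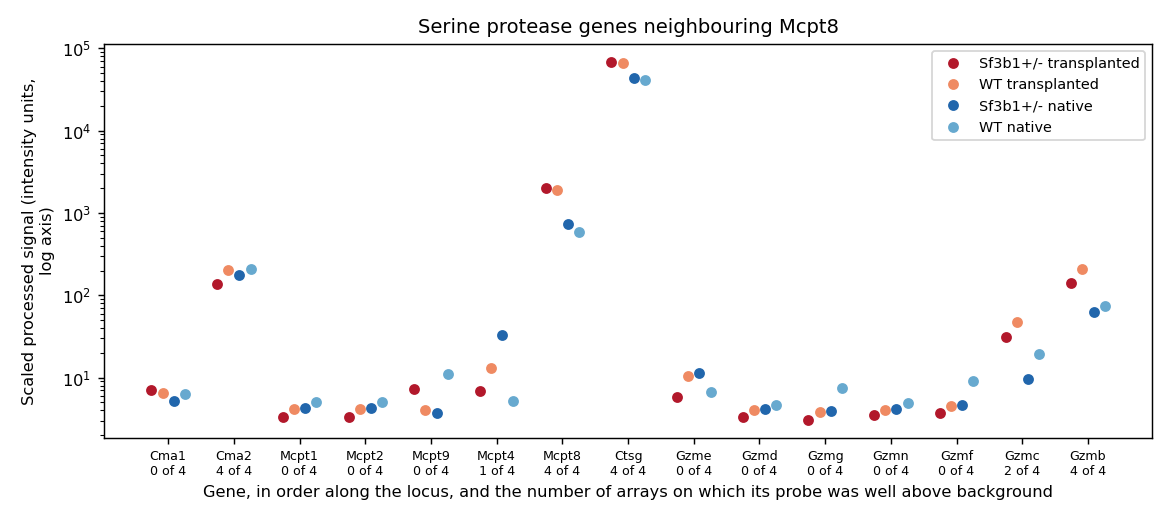
Scaled processed signal (log axis, intensity units) of the 15 protein-coding genes from Cma1 to Gzmb in their order along the locus, with the number of arrays on which each probe was well above background. Signals of different probes are not comparable. Mcpt8, Ctsg and Gzmb stand higher on both transplanted arrays (red and orange), and most of the other genes lie near background.

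Other genes of these cells were read from lists of their receptor signalling, granules, surface, regulators and lipid mediators. Beyond the 9 genes, the granule list (13 genes, 7 compared) had 3 members at least 1.5-fold higher after transplantation in Sf3b1+/- cells and 4 in WT cells, with 0 lower, against 11.4% and 7.95% of all compared genes higher. They were Ctsg, Slc18a2 and Gzmc in Sf3b1+/- cells, and Ctsg, Ndst2, Gzmc and Gzma in WT cells. Ctsg is also in the neutrophil list used here and Gzma in the cytotoxic lymphocyte list, so the counts are not particular to mast cells or basophils. Slc18a2, the transporter that loads histamine into granules, was 1.81-fold and 1.44-fold higher (adjusted p = 0.124). No gene of this list passed limma. Among surface and cytokine genes (13, 8 compared), 3 in Sf3b1+/- and 2 in WT cells were at least 1.5-fold higher and 2 and 1 lower. The sole gene to pass limma was Il6, a cytokine gene singled out after its values were seen and well above background on 3 of 4 arrays, with 86.9 and 69.0 in transplanted Sf3b1+/- and WT cells, against 18.9 and 17.7 in native ones (adjusted p = 0.0381). Il4, a cytokine that basophils release, gave 108 and 101 in transplanted Sf3b1+/- and WT cells, against 44.1 and 67.7 in native ones (adjusted p = 0.131). Lower by at least 1.5-fold in this list were Itga2 in both genotypes and Ccl3 in Sf3b1+/- cells. Of all compared genes, 7.01% in Sf3b1+/- and 5.74% in WT cells were. Itga2, well above background on 2 of 4 arrays, gave 6.75 and 9.43 in transplanted Sf3b1+/- and WT cells, against 23.8 and 23.3 in native ones. Ccl3 gave 10013 and 11484 in transplanted cells of these genotypes, against 15939 and 16954 in native ones. The basophil and mast cell surface gene Cd200r3 and the mast cell receptor gene Mrgprb2 were above background on no array.

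Of 12 regulators and growth factor receptors, all well above background on 4 arrays, 1 was at least 1.5-fold higher after transplantation in each genotype, a share near that of all compared genes (11.4% in Sf3b1+/- and 7.95% in WT cells). None passed limma, and 4 had an unadjusted p under 0.05 for the collection, with Csf2rb2 higher and Kit, Stat5a and Stat5b lower. Among all compared genes 13.6% were higher and 12.2% lower at that unadjusted p. The gene at least 1.5-fold higher was Csf2rb2, a receptor chain for interleukin-3. It gave 704 and 713 in transplanted Sf3b1+/- and WT cells, against 333 and 426 in native ones (adjusted p = 0.0972). Gata2, a regulator of both cell types, gave 7101 and 4257 in transplanted Sf3b1+/- and WT cells, against 5262 and 4797 in native ones, so its difference by genotype was 0.74 in transplanted and 0.13 in native cells. Mitf differed by 0.15 and -0.28 between the collections in Sf3b1+/- and WT cells, and Cebpa by 0.03 and 0.07. Kit, the stem cell factor receptor, was lower in transplanted cells by log2 differences of -0.38 and -0.43 (adjusted p = 0.16). The list of IgE receptor signalling held 12 genes, with Ms4a1 added as the B cell paralog of Ms4a2. All of them but Ms4a1 were compared (11). 1 in Sf3b1+/- cells and 2 in WT cells were at least 1.5-fold higher after transplantation, 0 lower, and none passed limma. Of 7 genes of lipid mediator synthesis 0 and 1 were at least 1.5-fold higher and none passed. The shares among all compared genes were those just given, with 7.01% and 5.74% lower.

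The pattern over the 4 arrays was matched against all genes above background on all of them, by the root mean square distance between centred log2 signals. Among the closest to Mcpt8 were Sema7a (0.11) and Sbno2 (0.13). Closest to Fcer1a were Cxcr6 (0.22), Plbd1 (0.23) and Jaml (0.24), and closest to Gzmb were Mpeg1 (0.054), Tyrobp (0.058) and Ifitm6 (0.086). The flat patterns of Cpa3 and Hdc had nearer matches, Dpp8 (0.0069), Faim (0.020) and Irf3 (0.021) for Cpa3, and Sdhaf1 (0.0099), Mycbp (0.018) and Timm9 (0.019) for Hdc. Tpsb2 was closest to Cnr2 (0.019), Cdc26 (0.026) and Itgb3bp (0.029). Among the genes themselves Mcpt8 lay nearer to Gzmb (0.32) and Fcer1a (0.41) than to Cpa3 (0.80), and Cpa3 nearest to Hdc (0.21). With 4 arrays many genes share a pattern by their number alone.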

How the data were processed

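Per the file headers, the deposited intensity values come from 1-colour scans of array design 028005 (Agilent), made with the vendor's Feature Extraction version 10.7.1.1 (protocol GE1_107_Sep09, probe build mm9), which subtracts background and detrends each array without scaling between arrays. Per the labels, 20 ng of total RNA from sorted cells was mixed with spike-in transcripts and labelled with Cy3. The series-wide file deposited by the authors holds ratio values, which the comparison of values shows to be the processed signal over a constant of each array (r of 1.00 on the log2 scale), with column medians of 0.0747, 0.0816, 0.0745 and 0.0810 for transplanted Sf3b1+/-, transplanted WT, native Sf3b1+/- and native WT cells. Their scale is linear and uncentred, and a larger value means more signal.

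Outlier spots were dropped, log2 signals averaged over a probe's spots and then shifted by the array's 75th percentile over probes detected on all 4 arrays, because 49.5% of spots were detected on average. A gene was represented by its probe with the highest mean signal. RefSeq accessions named 27509 probes. Groups came from the labels. limma 3.58.1 in R 4.3.3 (with version 1.17.8 of data.table) tested genotype and collection together (two-sided, Benjamini-Hochberg 0.05; prior of 3.05 degrees of freedom). With 1 array a group, the residual behind these p-values is how far a gene's genotype difference changed between the collections, moderated by the prior. It is not a spread between replicate mice or repeated arrays, and nothing says how many mice it covers. With 1 slide for all arrays, slide position and group cannot be told apart. The number of arrays limits the precision. On simulated data for the collection term over 13033 genes, the fit recovered 2.94%, 77.3% and 98.5% of changes of 1, 2 and 4 log2 units. There 200 genes were changed, and 4.99% of the unchanged ones had an unadjusted p under 0.05. In the measured data 13.6% of compared genes were higher and 12.2% lower at that p. The simulated rates may therefore not hold for these arrays.

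The members and lists were chosen with earlier results of these data known. Named genes are the 9 members, list genes above background on all 4 arrays and at least 2-fold apart (at most 4 a list), fixed regulators, and the 3 closest patterns, of which some are not reported here; others are list members named for their values after these were seen. The planned normexp correction used the median spot signal, since the files used hold no mean signal.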

Additional observations from a re-analysis of the deposited data

Results flagged for a closer look

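The genotype difference of Fcer1a pointed in opposite directions in the 2 collections, each beyond the SD between replicate spots of a probe. It was -0.42 in transplanted and 0.69 in native cells (Sf3b1+/- minus WT, log2), so that the transplanted difference lay at -1.11 relative to the native one. With 1 array a group, this difference between collections was not tested. With spike-in scaling the 2 values were 0.19 and 0.92, where the median of all compared genes moved to 0.62 and 0.23.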

How the results depend on the processing

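No paired analysis was possible because each group has 1 array and all are numbered replicate 1; leaving out an array leaves no residual degree of freedom, so neither was run. The median differences of the 7 compared genes between transplanted and native cells (1.15 in Sf3b1+/-, 1.5 in WT) stayed positive under all 9 alternatives. They were 1.98 and 1.94 with spike-in scaling, 0.56 and 0.74 with normexp, 0.76 and 0.93 with the filter on all 4 arrays, and 0.54 and 1.16 with no filter. Spike-ins moved the median of all compared genes by 0.83 in Sf3b1+/- and 0.45 in WT cells. The genotype medians (-0.22 in transplanted, 0.31 in native cells) were 0.39 and 0.54 with spike-in scaling, so the transplanted one turned its sign there.

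Of the 76 genes that limma called for the collection (2 of them members), quantile normalization, cyclic loess, no filter and the mean over probes left 0 and 0. Spike-in scaling called 5530 (6 members), normexp 1435 (4), the filter on all 4 arrays 264, and the percentile over all probes left 1 member. For genotype 0 genes were called, 543 with spike-ins and 33 with normexp, with 0 members under any alternative. Except where an alternative tests fewer or more genes, the cause was not tested.

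Genes at least 2-fold apart by collection numbered 845 in Sf3b1+/- and 572 in WT cells. They were 4442 and 1198 with spike-ins, 315 and 138 with normexp, 2029 and 1574 with no filter, and 305 in WT with the filter on all 4 arrays. Genotype gave 436 in transplanted and 277 in native cells, 2097 in transplanted with spike-ins, 114 and 33 with normexp, 1570 and 1159 with no filter, and 275 and 103 on all 4 arrays. The share of them that was higher by collection was 74.1% in Sf3b1+/- and 63.6% in WT cells, 98.8% and 93.4% with spike-ins, and 55.5% and 49.4% with no filter. The share higher by genotype was 61.2% in transplanted and 36.8% in native cells, 73.1% and 47.3% with quantile normalization, 98.9% and 69.4% with spike-ins, 75.4% in transplanted cells with cyclic loess and 44.1% with no filter, and 24.2% and 26.2% in native cells with normexp and the filter on all 4 arrays. Signals near background limit Prss34 in native cells, Ms4a2 and Cma1.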

Other observations

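Eosinophil markers, of which 5 of 6 were compared, were in no case 1.5-fold higher after transplantation, in either genotype. Epx, the eosinophil peroxidase gene, gave 171 and 50.1 in transplanted Sf3b1+/- and WT cells, against 202 and 90.6 in native ones, and no eosinophil marker passed limma for the collection. Of 4 primary granule genes of neutrophils, all above background on 4 arrays, 2 in each genotype were at least 1.5-fold higher after transplantation (11.4% of all compared genes in Sf3b1+/- and 7.95% in WT cells), and none passed limma. Mpo, the myeloperoxidase gene, stood at log2 0.07 and -0.17 in Sf3b1+/- and WT cells, while Prtn3, the proteinase 3 gene, was 2.20-fold higher after transplantation in Sf3b1+/- and 1.57-fold in WT cells (adjusted p = 0.111). Of the 7 NK and cytotoxic markers the single one that passed was Klrd1, named after its values were seen and well above background on 3 of 4 arrays, with 84.3 and 224 in transplanted Sf3b1+/- and WT cells, against 19.1 and 52.2 in native ones (adjusted p = 0.0381).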
